A study of Mus musculus with 6 samples.

Results

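Tubulin RNA was followed in mouse testis through 10 genes: the alpha-tubulins Tuba3a, Tuba3b, Tuba4a and Tuba8, the beta-tubulins Tubb3, Tubb4b and Tubb5, and the minor tubulins Tubg1 (gamma), Tubd1 (delta) and Tube1 (epsilon). They were chosen by symbol as testis and general isotypes and not by a rule on their values, but with earlier results of these data known. They are 10 of the 53700 genes counted and 10 of the 21902 that had enough reads to be tested. The series consists of 6 libraries of total RNA from testes of mice at postnatal day 45, all labelled with the strain Msl3em1Forni/C57BL/6J. In 3 mice the genotype label is MSL3 WT (here WT 1, 2 and 3), and in the other 3 it is MSL3 cKO, described as a conditional knockout of a floxed Msl3 allele (here cKO 1, 2 and 3). Msl3 encodes a chromatin reader of the MSL histone acetyltransferase complex, and the comparison asks whether RNA levels in the testis differ between the genotypes. The recombinase that acts on the floxed allele, the cells in which it acts and the deleted exons are not given in the sources used here.

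Alpha- and beta-tubulin form a heterodimer that polymerises into microtubules, and the acidic tails at the ends of both proteins are where most tubulin modifications are placed. In the testis these polymers build the meiotic spindle, the manchette that shapes the spermatid head and the axoneme of the sperm tail. Gamma-tubulin nucleates microtubules from ring complexes at centrosomes, and delta- and epsilon-tubulin are needed for the triplet microtubules of centrioles.

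The libraries held 56991431 to 73766444 reads assigned to genes. Reads of Msl3 numbered 942, 1226 and 990 in WT 1, 2 and 3 and 1170, 829 and 923 in cKO 1, 2 and 3, with overlapping normalised levels (log2 fold change of cKO over WT -0.12, edgeR quasi-likelihood adjusted p = 0.551). Counts over the whole gene do not show the loss of a few exons, so they do not check the labels, and WT and cKO below stand for what the labels say. Markers of germ cells and of testicular somatic cells were present in every library. Of the genes in 11 marker lists, none of those with enough reads to be tested passed the test. The summed level of the 6 round spermatid markers was 1046 to 1157 CPM (read counts scaled to the size of the library) in WT. In cKO it was 999 to 1037 CPM, without overlap, while the sums of the other 10 lists overlapped. Median log2 fold changes of the lists ran from -0.27 (blood) to 0.13 (neuron). They were -0.15 for round spermatid, -0.13 for elongating spermatid and 0.12 for Sertoli markers. The 6 epididymal markers had at most 12 reads each in any library and were not tested.

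The identity of the members at the sequence level sets what a count of uniquely placed reads can tell. Tuba3a lies on chromosome 6 from 125278274 to 125286042 on the minus strand and Tuba3b on chromosome 6 from 145615757 to 145621479 on the plus strand (build mm10, GENCODE M21 annotation). Their coding sequences are both 1353 bases long and 97.0% identical. The 41 bases that differ lie in 41 codons, and all 41 pairs of codons are synonymous, so that the annotated coding sequences of these genes encode the same alpha-tubulin. The longest stretch without a difference spans coding bases 430 to 584, which is 155 bases, and is printed below because a 75-base read from within it carries no base that tells the genes apart. The capitals at each end are the differing bases that bound it.
Tuba3a: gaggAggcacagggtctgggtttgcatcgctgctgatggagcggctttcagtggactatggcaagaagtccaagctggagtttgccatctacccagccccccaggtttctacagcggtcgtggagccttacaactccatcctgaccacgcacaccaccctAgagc
Tuba3b: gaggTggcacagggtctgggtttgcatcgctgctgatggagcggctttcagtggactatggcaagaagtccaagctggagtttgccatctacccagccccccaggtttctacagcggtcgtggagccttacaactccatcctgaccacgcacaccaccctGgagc

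The other members are far more distinct from each other, and all are protein-coding genes. Tuba4a lies on chromosome 1 from 75214228 to 75219865 (minus strand) and Tuba8 on chromosome 6 from 121210696 to 121226854 (plus). Tubb3 lies on chromosome 8 from 123411424 to 123422015 (plus), Tubb4b on chromosome 2 from 25222160 to 25224702 (minus) and Tubb5 on chromosome 17 from 35833921 to 35838306 (minus). Tubg1 and Tubd1 are both on the plus strand of chromosome 11, from 101119938 to 101126419 and from 86544991 to 86567360, and Tube1 is on chromosome 10 from 39133976 to 39152542 (plus). Coding identity was 80.8% to 83.5% between Tuba4a, Tuba8 and either Tuba3 gene, and 81.2% to 82.2% among Tubb3, Tubb4b and Tubb5. The end of the coding sequence encodes the acidic tail, whose identity was not compared with that of the rest of the sequence. The last 60 coding bases are shown for the 7 alpha and beta members, with the glutamate codons GAA and GAG in capitals, because glutamates of this tail receive the side chains that the modifying enzymes described further on add and remove.
Tuba3a: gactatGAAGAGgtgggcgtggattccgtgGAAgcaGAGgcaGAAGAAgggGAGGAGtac
Tuba3b: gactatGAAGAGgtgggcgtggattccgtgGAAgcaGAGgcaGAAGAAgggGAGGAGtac
Tuba4a: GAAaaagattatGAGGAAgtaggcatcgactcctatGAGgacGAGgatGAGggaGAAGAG
Tuba8: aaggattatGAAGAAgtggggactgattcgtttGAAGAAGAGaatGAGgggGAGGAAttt
Tubb4b: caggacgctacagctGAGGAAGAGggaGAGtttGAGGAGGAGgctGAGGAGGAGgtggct
Tubb5: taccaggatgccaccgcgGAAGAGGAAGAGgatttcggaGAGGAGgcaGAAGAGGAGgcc
Tubb3: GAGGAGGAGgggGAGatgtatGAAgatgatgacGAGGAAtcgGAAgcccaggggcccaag

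The Tuba3a and Tuba3b tails are identical base for base. Of 20 codons, 8 were GAA or GAG in each of the 4 alpha members and in Tubb3, 9 in Tubb5 and 10 in Tubb4b. The last codon is tac, a tyrosine codon, in both Tuba3 genes. The Tuba4a coding sequence ends in gag and that of Tuba8 in ttt, so neither encodes the final tyrosine that carboxypeptidases remove and tubulin tyrosine ligase restores on other alpha-tubulins.

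The first 4 codons are shown for a gene of each kind because in alpha- and beta-tubulin the start of the nascent chain is read by Ttc5, the factor that triggers decay of tubulin mRNA when free tubulin is plentiful. Capitals mark the fourth codon.
Tuba3a: atgcgtgagTGT
Tuba8: atgagggaaTGC
Tubb4b: atgagggagATC
Tubb5: atgagggaaATC
Tubg1: atgccgagaGAA
The alpha members carry TGT or TGC, which are cysteine codons, and the 3 beta members carry ATC, an isoleucine codon, after codons that differ only between synonymous forms. The starts of Tubg1, Tubd1 and Tube1 differ from these and from each other.

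A read of 75 bases can be placed in 1 gene only if its sequence occurs in no other. In Tubb4b, 37.8% of all 75-base windows of the longest complete coding transcript also occurred in the annotated transcript of another gene, most of them in the processed pseudogene Tubb4b-ps1 (33.7%), fewer in Tubb4b-ps2 (6.96%) and Gm16165 (3.35%). In Tuba3a the share was 19.9%, all of it with Tuba3b, and a few of these windows were also in the pseudogene Gm5366. In Tuba3b it was 18.9%, with windows found in Tuba3a (16.8%) or Gm5366 (2.88%). Tubg1 shared 7.64% of its windows, all with its paralog Tubg2, and Tuba4a, Tuba8, Tubb3, Tubb5, Tubd1 and Tube1 shared none. The pseudogenes held few reads of their own: 1408 to 2252 a library for Tubb4b-ps1 against 48216 to 69182 for Tubb4b, and at most 36 for Tubb4b-ps2, 21 for Gm5366 and 7 for Gm16165. Reads of shared windows are missing from a unique count or have gone to the copy, so the levels of Tubb4b, Tuba3a, Tuba3b and Tubg1 carry an error that was not measured here.

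**Figure D1:**
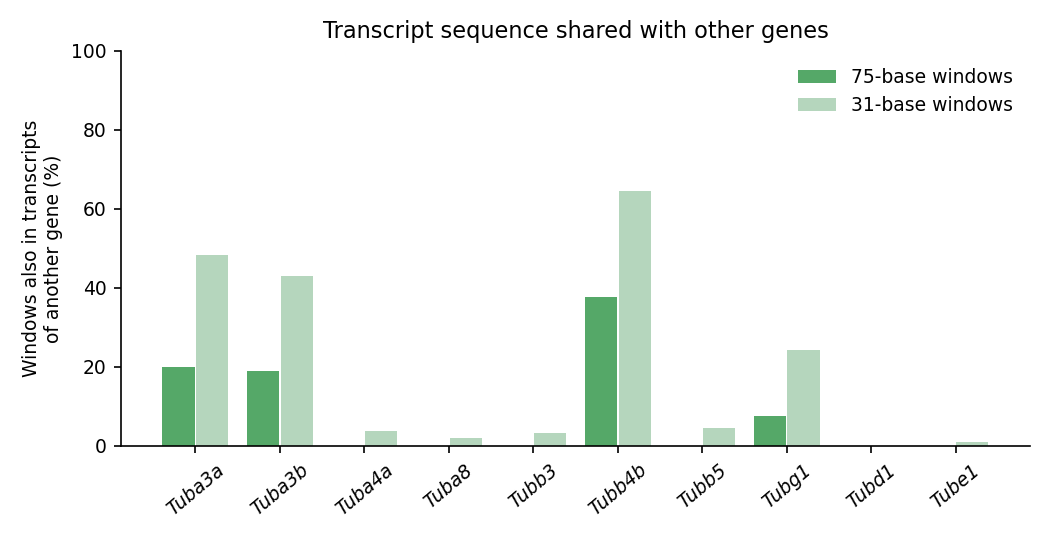
Bars give, for each member, the percent of 75-base (dark) and 31-base (light) windows of its longest complete coding transcript that also occur in an annotated transcript of another gene in GENCODE M21. Of 75-base windows, Tubb4b shares 37.8%, Tuba3a 19.9%, Tuba3b 18.9%, Tubg1 7.64% and the other 6 members none, and at 31 bases Tubd1 alone shares none.

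Annotated genes on the opposite strand overlap the exons of 5 members. The overlap was 1379 bases with the kinase gene Stk16 in Tuba4a (37.3% of its exon bases), 368 bases with the antisense gene Gm15856 in Tuba8 (16.3%), 121 bases with Fam166a in Tubb4b, 482 bases with Ccn6 in Tube1 and 75 bases with 4930417O13Rik in Tuba3a. The counts used here keep strand, and Gm15856 had at most 4 reads in a library. When strand was ignored, Tuba8 was left with 74.3% to 75.5% of its reads and Tubb4b with 91.2% to 91.9%; in such a count a read that lies in both genes is given to neither. The other 8 members kept 97.8% or more.

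Levels between genes were compared as CPM per kilobase of annotated exon, averaged over the 6 libraries. Tuba3a was highest at 793 ± 83.5 (SD, n = 6) and Tuba3b next at 719 ± 64.6, followed by Tubb4b at 446 ± 20.2. Together these 3 genes made up 88.4% of the summed level of the 10 members. Tuba8, an alpha-tubulin enriched in testis and muscle, stood at 126 ± 14.1 and Tuba4a at 47.5 ± 4.26. A closely spaced group came next, with Tubb5, the broadly expressed beta-tubulin of dividing cells, at 25.1 ± 2.42, Tubb3, the isotype best known from neurons, at 22.8 ± 2.76, and Tubd1 at 21.2 ± 1.07. Tubg1 stood at 13.4 ± 0.824 and Tube1 far below at 0.699 ± 0.0496 CPM per kilobase.

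The ranges over the libraries overlapped for only 3 neighbouring pairs in that order. Tuba3a was above Tuba3b in 6 of 6 libraries, by 1.09 to 1.13 times, although the ranges of the genes overlapped. In CPM without division by length, Tuba3b was the higher in every library. The order of these genes thus rests on their annotated exon lengths, 1509 bases in Tuba3a and 1775 in Tuba3b. Tubb5 was also above Tubb3 in 6 of 6 libraries, whereas Tubb3 was above Tubd1 in only 3 of 6, so the order of these last genes is not set by the data. The neuronal marker list summed to 4.78 to 5.83 CPM over 5 genes in every library, and Tubb3 alone had 35.7 to 48.7 CPM. When reads were divided by the number of windows that no other transcript holds, Tubb4b rose to 982 per 1000 windows, between Tuba3a at 1040 and Tuba3b at 925. The places of the other 7 members did not move.

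**Figure D2:**
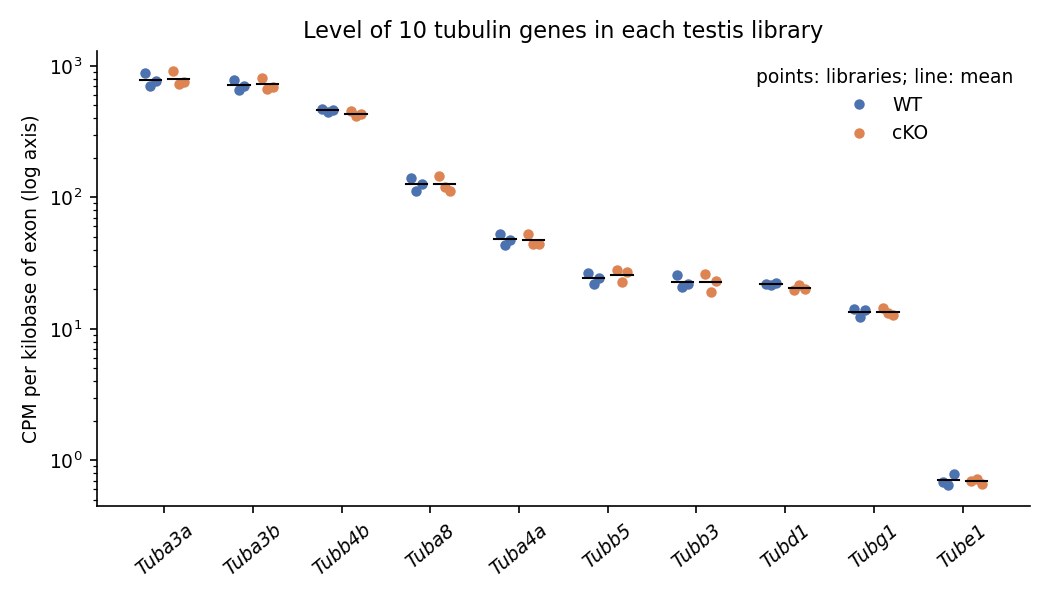
The log axis gives CPM per kilobase of exon, and each point is a library, with WT and cKO libraries in separate colours, for the 10 members in order of their mean. Tuba3a, Tuba3b and Tubb4b lie between 413 and 907, Tube1 lies between 0.645 and 0.784, and the points of the genotypes overlap for every gene except Tubd1.

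At the RNA level, the shares of the most abundant isotypes within the alpha genes and within the beta genes varied little across the 6 mice. Tuba3a gave 46.0% (45.5% to 46.5%) of the summed level per kilobase of the 8 measured alpha genes and Tuba3b 41.7% (41.2% to 42.1%), Tuba8 7.29% (6.81% to 7.51%) and Tuba4a 2.76% (2.70% to 2.83%). Tuba1a, Tuba1b and Tuba1c, the general alpha-tubulins of most tissues, gave 0.944%, 0.272% and 0.975%, but 68.2%, 71.9% and 56.7% of their own 75-base windows are shared with other transcripts, so these shares are the least certain. Among the 8 beta genes Tubb4b, a beta-tubulin of cilia and flagella, gave 87.1% (86.0% to 88.2%). Tubb5 gave 4.90% (4.32% to 5.46%), Tubb3 4.44% (4.05% to 4.93%) and Tubb6, which was not among the members, 2.74%. Per unshared window the part of Tuba3a and Tuba3b together in alpha was 86.3% and that of Tubb4b in beta was 92.1%.

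Between genotypes these shares moved by small amounts. Tuba4a took 2.75%, 2.81% and 2.83% of alpha in WT 1, 2 and 3 and 2.70%, 2.74% and 2.72% in cKO 1, 2 and 3. These groups did not overlap, which held for Tuba4a alone among the shares of the 8 alpha and 8 beta genes. For comparison, the groups did not overlap in CPM in 18.9% of all genes tested. Tubb4b took 86.7%, 88.2% and 87.7% of beta in WT and 86.0%, 87.4% and 86.7% in cKO, with overlap (exact two-sided permutation test, p = 0.2, where 0.1 is the smallest that 3 against 3 allows; Benjamini-Hochberg adjusted p = 0.52 over 13 ratios, sums and shares). The Tuba4a and Tubb5 shares were not tested. Tubb5 took 4.92%, 4.32% and 4.65% in WT and 5.26%, 4.80% and 5.46% in cKO, also with overlap. Summed alpha RNA exceeded summed beta RNA per kilobase in every library, by 3.04 to 3.70 times, and per unshared window by 1.92 to 2.36 times. In the cell the heterodimer holds equal numbers of both proteins, and protein was not measured here.

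**Figure D3:**
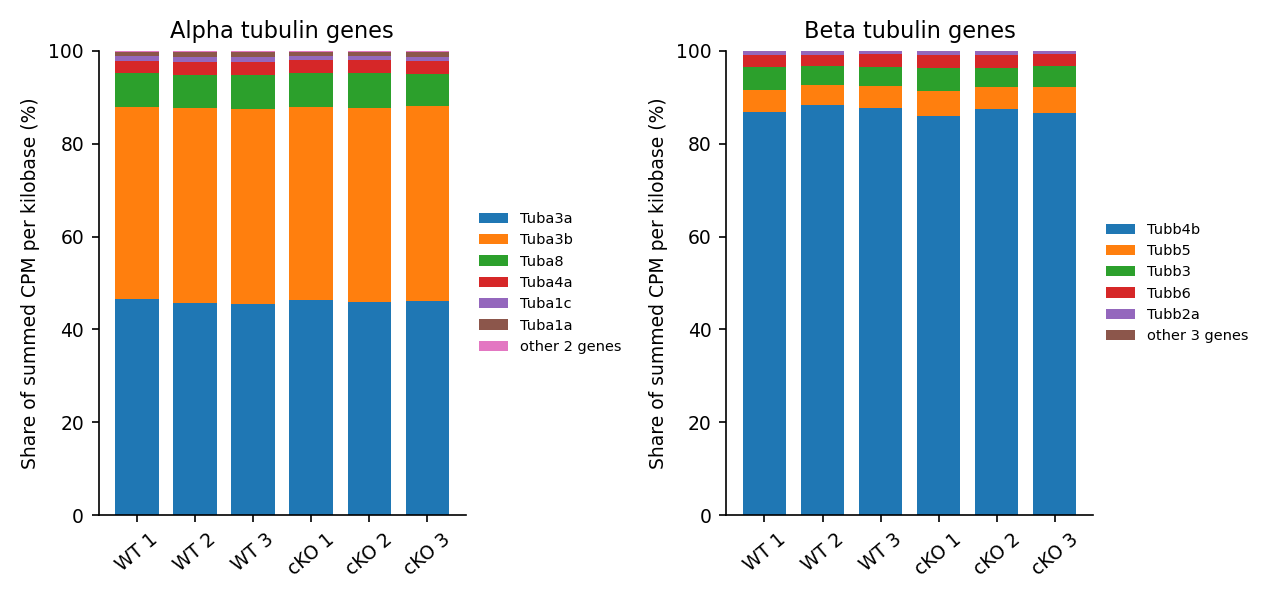
Stacked bars give, for each of the 6 libraries, the percent of the summed CPM per kilobase of the 8 alpha genes (left) and of the 8 beta genes (right) that each isotype holds. Tuba3a and Tuba3b together fill 87.4% to 88.2% of every alpha bar and Tubb4b fills 86.0% to 88.2% of every beta bar, in WT and cKO alike.

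In the comparison of cKO with WT no member passed the test. At an adjusted p under 0.05 (edgeR quasi-likelihood, Benjamini-Hochberg over 21902 genes) 0 of 10 were called, against 0.0183% of all genes tested (0.00913% higher and 0.00913% lower). At an unadjusted p under 0.05 the count was also 0 of 10, against 13.9% of all genes (7.33% higher and 6.54% lower in cKO). The fitted log2 fold changes ran from -0.11 to 0.09, with 4 members higher and 6 lower in cKO, and their median was -0.00089, beside 0.0031 over all genes. The median size of the change without regard to sign was 0.023 for the members, 0.12 for all genes and 0.099 for the 12196 genes whose mean level reached 5 CPM. In whole testis, fewer cells of a type and less RNA per cell cannot be told apart, and this holds for each value that follows.

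The 2 genes for the identical alpha-tubulin had the same order of levels over the libraries. Tuba3a stood at 1338, 1066 and 1159 CPM in WT 1, 2 and 3 and at 1369, 1108 and 1137 CPM in cKO 1, 2 and 3. Tuba3b stood at 1395, 1155 and 1256 CPM in WT and at 1438, 1189 and 1220 CPM in cKO. In both genes replicate 1 of each genotype was highest, replicate 2 lowest, and the groups overlapped. The level of Tuba3a in cKO was 101% of that in WT, with 95% limits of 87.3% and 118% (log2 fold change 0.02 ± 0.10 SE, edgeR adjusted p = 0.948). For Tuba3b it was 101% with limits of 88.3% and 116% (0.02 ± 0.09, edgeR adjusted p = 0.954).

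Tuba8 and Tuba4a, the alpha members whose coding sequences lack the final tyrosine codon, were also lower in WT 2 than in the other WT libraries. Tuba8 stood at 315, 253 and 285 CPM in WT and at 328, 272 and 252 CPM in cKO. Tuba4a stood at 194, 161 and 177 CPM in WT and at 195, 162 and 165 CPM in cKO. The groups overlapped for both genes, with WT 1 and cKO 1 the highest library of each group. In cKO, Tuba8 was at 99.9% of its WT level with limits of 85.4% and 117% (log2 fold change -0.0017 ± 0.10 SE, edgeR adjusted p = 0.996). Tuba4a was at 98.2% with limits of 85.6% and 113% (-0.03 ± 0.09, edgeR adjusted p = 0.921). Stk16, which overlaps Tuba4a on the other strand, was lower in cKO without overlap between groups (log2 fold change -0.17, edgeR adjusted p = 0.315).

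Among the beta members, Tubb4b stood at 976, 939 and 959 CPM in WT and at 948, 862 and 901 CPM in cKO. Its groups overlapped because cKO 1 lay between WT 2 and WT 3. The cKO level was 94.3% of WT with limits of 85.6% and 104% (log2 fold change -0.08 ± 0.06 SE, edgeR adjusted p = 0.580). Its pseudogene Tubb4b-ps1, which shares 33.7% of the Tubb4b windows, had a log2 fold change of -0.17 (edgeR adjusted p = 0.389). Tubb5 stood at 88.1, 73.3 and 81.0 CPM in WT and at 92.4, 75.4 and 90.4 CPM in cKO, which is 107% with limits of 92.7% and 122% (0.09 ± 0.09, edgeR adjusted p = 0.694). This was the highest fold change of the 10 members, and cKO 2 lay between WT 2 and WT 3. Tubb3 stood at 48.2, 38.9 and 40.6 CPM in WT and at 48.7, 35.7 and 43.1 CPM in cKO, and its fitted log2 fold change was -0.00012 ± 0.11 (limits of 84.4% and 118%, edgeR adjusted p = 1.000).

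Among the minor tubulins, Tubd1 stood at 45.6, 45.0 and 46.4 CPM in WT and at 40.9, 44.3 and 41.7 CPM in cKO. Every cKO library lay below every WT library, which held for 1 of the 10 members. Of all genes tested, 18.9% had groups without overlap in either direction, and 8.85% were lower in cKO. Among the 12196 genes whose mean level reached 5 CPM, 24.0% had groups without overlap in either direction. The cKO level of Tubd1 was 92.6% of WT with limits of 83.8% and 102% (log2 fold change -0.11 ± 0.07 SE, edgeR adjusted p = 0.473). Tubg1 stood at 31.8, 27.8 and 31.5 CPM in WT and at 32.6, 30.1 and 28.9 CPM in cKO, with overlap and a log2 fold change of 0.0097 ± 0.08 (limits of 89.2% and 114%, edgeR adjusted p = 0.969). Tube1, with 302 to 399 reads a library, stood at 5.39, 5.05 and 6.15 CPM in WT and at 5.47, 5.65 and 5.17 CPM in cKO, again with overlap (-0.03 ± 0.11, limits of 83.4% and 116%, edgeR adjusted p = 0.937). For all 10 members the limits reached no lower than 83.4% and no higher than 122% of WT, and these limits, which differ from gene to gene, mark the differences that the data of 3 mice a group leave possible. Leaving out single libraries turned the direction of 7 members, within log2 fold changes of -0.12 to 0.12, and left the directions of Tubb4b, Tubb5 and Tubd1 as they were.

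**Figure D4:**
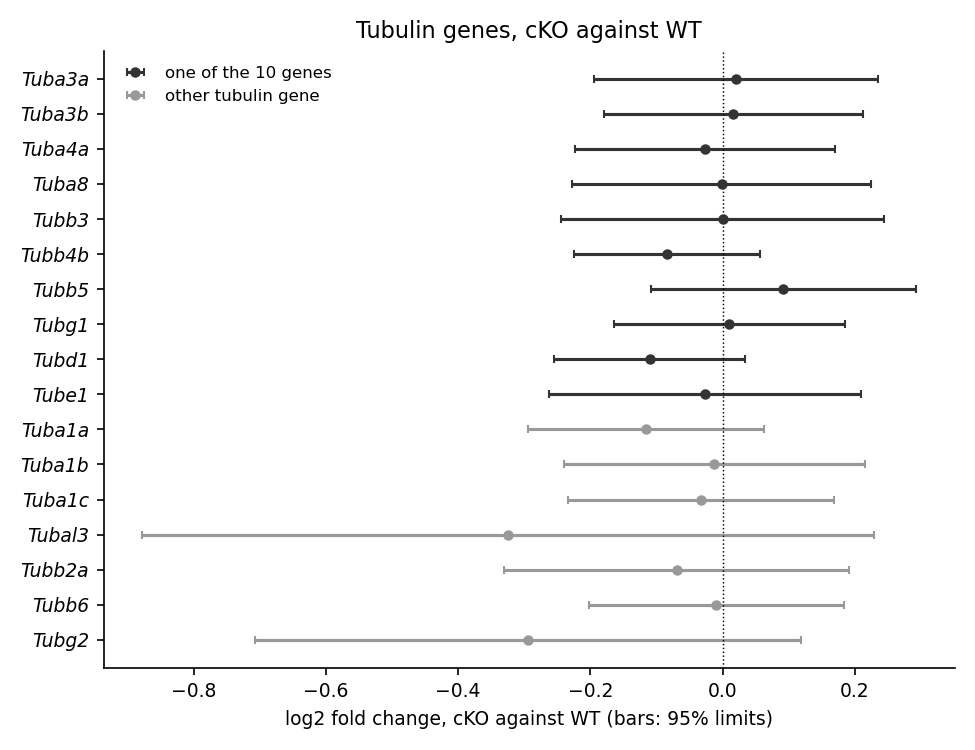
Points give the fitted log2 fold change of cKO over WT for the 10 members and the 7 other tubulin genes that were tested, and bars give the 95% limits. Every bar crosses 0. The points of the members lie between -0.11 and 0.09, and the bars of the thinly covered Tubg2 and Tubal3 are the widest.

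The coefficient of variation of the members over the 6 libraries, WT and cKO together, ran from 4.53% (Tubb4b) to 12.1% (Tubb3). Counting alone gives 0.354% (Tuba3b) to 5.42% (Tube1). For Tube1 the values were close, at 7.09% over the libraries and 5.42% from counting, so its variation between mice is not clearly beyond counting error. WT 2 was the lowest WT library in 10 of 10 members. WT 1 was the highest WT library in 8 members, with WT 3 highest in Tubd1 and Tube1, and cKO 1 was the highest cKO library in 8, with cKO 2 highest in Tubd1 and Tube1. The share of reads that overlapped no annotated exon on the counted strand was 4.98%, 6.65% and 6.08% in WT 1, 2 and 3 and 5.05%, 6.94% and 5.85% in cKO 1, 2 and 3. It was thus lowest in the libraries where most members were highest, and its part in the members' levels was not tested.

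The genes whose levels over the 6 libraries were most like those of Tuba3b, the member with the most reads, were B4galt2, Rbck1 and Tmem259. Their log2 CPM, centred on the mean of each gene, differed from that of Tuba3b by a root mean square of 0.0072, 0.011 and 0.013, where the median over 10042 genes was 0.14. Tuba3a came to 0.021 and Tuba4a to 0.023 by the same measure.

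Of the other 10 tubulin genes, 7 had enough reads to be tested. Tuba1c, Tuba1a and Tubb6 stood highest at 16.8, 16.2 and 14.0 CPM per kilobase, just above Tubg1 by this measure. Of 75-base windows, 56.7% in Tuba1c and 68.2% in Tuba1a are shared with other transcripts, against 7.64% in Tubg1. Unique counts thus lose more reads in these Tuba1 genes, and their place relative to Tubg1 and the other members is uncertain. None of the 7 tested genes passed the test or had an unadjusted p under 0.05. All 7 had log2 fold changes below 0, with a median of -0.07. Over all genes tested, 49.3% had a fold change below 0. Tuba1a stood at 31.2, 30.0 and 29.9 CPM in WT and at 30.1, 24.9 and 29.0 CPM in cKO (log2 fold change -0.12, edgeR adjusted p = 0.547). Tubg2 stood at 1.26, 0.940 and 1.03 CPM in WT and at 0.987, 0.768 and 0.856 CPM in cKO (-0.29, edgeR adjusted p = 0.503). Tuba1c, the most abundant of these genes by reads, stood at 41.4, 33.9 and 41.0 CPM in WT and at 41.4, 35.5 and 36.8 CPM in cKO (-0.03, edgeR adjusted p = 0.907). Tubb1, Tubb2b and Tubb4a had at most 10 reads in any library and were not tested.

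Genes that act on tubulin were grouped in 6 further lists, and none of their members passed the test. Together with the other tubulins they hold 85 genes, of which 80 were tested, 0 were called, and 9 had an unadjusted p under 0.05, of which 7 were higher and 2 lower in cKO. In 13 of the 80 the groups did not overlap. Over all genes tested the corresponding shares were 13.9% and 18.9%. For the directions given list by list below, 49.3% of all genes tested had a log2 fold change below 0.

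Newly made tubulin is folded by the chaperonin TRiC, to which prefoldin delivers it, and joined into heterodimers by cofactors. Of the 8 genes in the list of folding cofactors, all tested, 4 were higher and 4 lower in cKO, with a median log2 fold change of -0.01. Tbca, which binds beta-tubulin, stood at 69.9, 85.0 and 77.4 CPM in WT and at 70.4, 61.7 and 69.3 CPM in cKO (-0.21, unadjusted p = 0.0315, edgeR adjusted p = 0.323), with cKO 1 just above WT 1. The list also holds Ttc5, which reads the start of the nascent tubulin chain and triggers decay of tubulin mRNA. Ttc5 stood at 18.2, 17.7 and 19.4 CPM in WT and at 17.5, 16.5 and 16.5 CPM in cKO without overlap (-0.13, edgeR adjusted p = 0.463). Tbcel, which acts on assembled tubulin, was the most abundant of the list. It stood at 90.5, 88.1 and 92.0 CPM in WT and at 93.1, 94.4 and 92.8 CPM in cKO, higher and also without overlap (0.05, edgeR adjusted p = 0.750).

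Of the 15 chaperonin and prefoldin genes, 5 were higher and 10 lower, with a median of -0.06. Pfdn5, a prefoldin subunit, stood at 227, 274 and 250 CPM in WT and at 209, 190 and 232 CPM in cKO (-0.25, unadjusted p = 0.0149, edgeR adjusted p = 0.305), and only cKO 3 reached the WT range. Pfdn1 stood at 73.6, 77.6 and 75.1 CPM in WT and at 72.2, 64.6 and 68.8 CPM in cKO (-0.14, edgeR adjusted p = 0.384), without overlap. Tcp1, a TRiC subunit and the most abundant gene of the list, stood at 2326, 2289 and 2274 CPM in WT and at 2397, 2151 and 2171 CPM in cKO (-0.04, edgeR adjusted p = 0.850).

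Around gamma-tubulin, 8 genes of the 11 of the ring complex and its anchors were higher in cKO and 3 lower, with a median of 0.05. The 3 with an unadjusted p under 0.05 were large centrosomal scaffold genes and not ring subunits. Pcnt stood at 87.0, 82.9 and 83.8 CPM in WT and at 91.0, 115 and 100.4 CPM in cKO without overlap (0.27, edgeR adjusted p = 0.288). Cdk5rap2 stood at 210, 199.8 and 203 CPM in WT and at 207, 287 and 239 CPM in cKO (0.26, edgeR adjusted p = 0.312), so that cKO 2 and cKO 3 were high and cKO 1 lay within the WT range. Akap9, named after its values were seen, had a mean of 31.1 ± 5.79 CPM (SD, n = 3) in WT and 43.4 ± 15.0 CPM (SD, n = 3) in cKO (0.47, edgeR adjusted p = 0.348). Without cKO 1 these 3 genes did pass the test, with 628 genes called in all, against 4 with every library. The delta- and epsilon-tubulin partners Tedc1 and Tedc2 had log2 fold changes of 0.13 and -0.12 (edgeR adjusted p = 0.466 and 0.749).

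The list of tubulin-modifying enzymes holds those that act on the tails printed above and also Atat1, Hdac6 and Sirt2, which set or remove acetylation elsewhere in alpha-tubulin. All 27 were tested, and 22 were higher and 5 lower in cKO, with a median of 0.07. Over all genes tested 49.3% were lower, with a median of 0.0031. The direction of the list as a whole was not tested. Agbl5, a carboxypeptidase that removes the branch-point glutamate of polyglutamate side chains and the most abundant of the list, stood at 715, 676 and 669 CPM in WT and at 748, 821 and 741 CPM in cKO without overlap (0.16, unadjusted p = 0.0315, edgeR adjusted p = 0.323). Hdac6, the main tubulin deacetylase, stood at 80.4, 64.9 and 74.8 CPM in WT and at 89.9, 78.9 and 84.3 CPM in cKO (0.20, unadjusted p = 0.0367, edgeR adjusted p = 0.335), with overlap. The other 2 with an unadjusted p under 0.05, the glutamylases Ttll5 and Ttll7, were named after their values were seen and had log2 fold changes of 0.19 and 0.15 (edgeR adjusted p = 0.350 and 0.355). Ttl, the ligase that restores the final tyrosine, was low at 1.64 CPM in WT and 1.93 CPM in cKO and was also named after its values were seen.

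Of the 12 severing enzymes and stathmins, 10 were tested, with 6 higher and 4 lower and a median of 0.05. Spast, which encodes the severing enzyme spastin, stood at 125, 119 and 122 CPM in WT and at 132, 136 and 131 CPM in cKO without overlap (0.12, edgeR adjusted p = 0.392). Katnal2, a katanin gene, had a log2 fold change of 0.10 (edgeR adjusted p = 0.519).

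**Figure D5:**
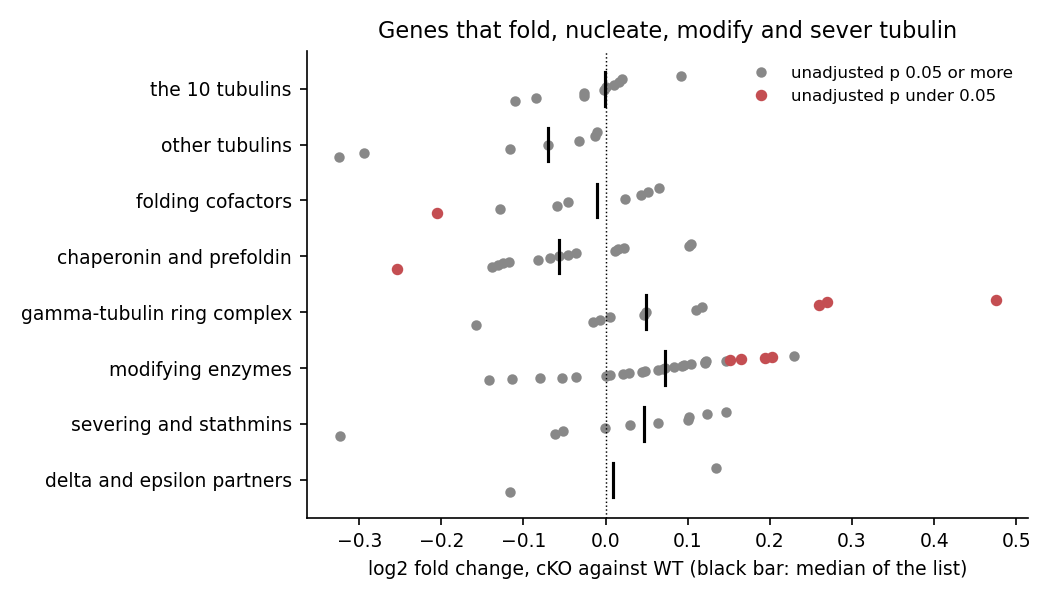
Each point is a tested gene, placed by its fitted log2 fold change of cKO over WT, black bars are the medians of the lists, and red points have an unadjusted p under 0.05. The 10 members lie between -0.11 and 0.09 with no red point, and the 3 red points of the gamma-tubulin list at 0.26, 0.27 and 0.47 are the farthest to the right.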

How the data were processed

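The authors deposited 1 table of raw read counts per library, for 53700 genes, in the layout of STAR's gene counts (unstranded, gene's strand, opposite strand). Per the submitters' processing notes the tools were STAR, HTSeq and DESeq2 and the build mm10, without roles or versions, and per the labels' protocols reads were single-end of 75 bases. Opposite-strand counts were used because they held 96.0% to 96.2% of the stranded reads. Lines that name no gene, with 14.8% to 16.7% of a library's reads, were left out. Such tables count reads placed in 1 gene only.

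The members and lists were chosen with earlier results of these data known. Named from each list were the 2 tested genes with the smallest p and the one with the most CPM, and for likeness to the member with the most CPM the nearest 3 genes averaging 10 CPM or more. A gene that this rule names is not reported here. cKO was tested against WT with edgeR 4.0.16 in R 4.3.3: TMM factors, the low-count filter filterByExpr (min.count 10), the quasi-likelihood F test, no covariates, and Benjamini-Hochberg adjustment over 21902 genes at 0.05. The fit was also run on simulated counts with known fold changes, drawn independently for each gene and library. Those counts held no variation shared by the genes of a library, and the outcome is not given here. CPM use TMM-scaled library sizes, SE were derived from the F statistic, and percentages of WT with 95% limits from the fit. Exact permutation tests of 13 ratios, sums and shares between genotypes were added to a design that had described them only. Labels call the samples biological replicates.

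Gene models and transcripts were from GENCODE M21, which matched 52147 of 53700 identifiers and all 158 list symbols. Shared windows were sought in annotated transcripts only, since no genome sequence was used here, and coding sequences were aligned in place of the planned protein comparison. Alternatives were RLE scaling, library totals alone, no filter, at least 10 reads in every library, unstranded counts, DESeq2 1.42.0, robust quasi-likelihood, a replicate block, each library left out, other lengths, and 31-base windows.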

Additional observations from a re-analysis of the deposited data

How the results depend on the processing

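No member was called under any of 14 alternatives of the fit, and the lowest adjusted p was 0.364 (Tubd1). With library totals alone, 1 member, Tubd1, had an unadjusted p under 0.05 (0.0491). The count over all genes was unstable: 4 genes were called in the main comparison, 757 without the filter, 2 with unstranded counts, 194 with DESeq2 and 1 to 628 when a library was left out, with 116 without WT 1 and 628 without cKO 1. The cause was not tested. With the replicate block 49 genes and 0 members were called; the deviations of same-numbered libraries correlated at 0.35, 0.26 and -0.05, so the numbers were not taken as a pairing. Without the filter, 1 gene of the chaperonin and prefoldin list (Pfdn5) and 1 of the gamma-tubulin list (Akap9) were called. When a library was left out, 0 to 3 genes of the gamma-tubulin list were called.

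Directions of members close to 0 reversed. With library totals alone the log2 fold changes were -0.0063 for Tuba3a, -0.011 for Tuba3b and -0.017 for Tubg1, and with unstranded counts 0.0059 for Tuba8. When a library was left out they ranged from -0.083 to 0.12 for Tuba3a, -0.075 to 0.090 for Tuba3b, -0.12 to 0.044 for Tuba4a, -0.12 to 0.080 for Tuba8, -0.11 to 0.11 for Tubb3, -0.051 to 0.049 for Tubg1 and -0.089 to 0.047 for Tube1.

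With the longest transcript, unshared windows or unstranded counts, the part of Tuba3a, Tuba3b and Tubb4b in the members' level was 88.2%, 91.0% and 89.5% (88.4% in the main result), that of Tuba3a and Tuba3b in alpha 86.9%, 86.3% and 89.4% (87.7%), and that of Tubb4b in beta 88.2%, 92.1% and 85.9% (87.1%). At 31 bases 9 members shared a window with another gene, against 4 at 75 bases. Depth limits Tube1 most, where counting alone gives a coefficient of variation of 5.42%.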
